A study of Mus musculus and Rattus norvegicus with 2 samples.

Results

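Y RNAs and vault RNAs are small non-coding RNAs made by RNA polymerase III, and their fragments were followed here in small RNA libraries of caput epididymal sperm. The members were chosen as every listed sequence whose matched entry was the Rfam family Y_RNA or Vault, a rule that uses the entry and not the read count. These were 664 of 650877 distinct sequences in the rat library (333 Y_RNA and 331 Vault) and 172 of 914516 in the mouse library (99 Y_RNA and 73 Vault). Sperm had been purified from the caput, the head of the epididymis, where spermatozoa arrive from the testis. The rat library was from young adult Sprague Dawley rats of 450 g and the mouse library from C57BL/6 mice of 2 months. The labels name no treatment or genotype and do not say how many animals gave the RNA. RNA of 18 to 45 nt was selected before sequencing, and listed sequences were 18 to 96 nt long. With 1 library per species there is no replicate check and no test. Values in parentheses after a share or a ratio are exact 95% intervals, and cover nothing but counting error, because PCR copies without molecular identifiers are not independent molecules.

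A Y RNA folds back on itself, so that its ends pair into a stem that carries the binding site of the protein Ro60, and its 3′ tail of U residues is bound by the La protein. Rodents carry a Y1 and a Y3 gene. Vault RNA is a minor component of the vault, a large barrel-shaped ribonucleoprotein particle of the cytoplasm built mostly from the major vault protein. Both RNAs are cut into stable fragments in many cells and body fluids.

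The mouse reference RNAs and the leading Y1 fragments are shown because the fragments' ends decide most of what follows. In GENCODE M21 on GRCm38, Rny1 (ENSMUSG00000065701) is a 112-nt non-coding gene on the minus strand at chr6:47788069-47788180, and Rny3 (ENSMUSG00000064945) is a 102-nt non-coding gene on the plus strand at chr6:47781624-47781725. Sequences run 5′ to 3′ as DNA letters. Capitals mark the bases that RNAfold pairs between the 5′ and the 3′ part of the RNA, which form the stem of the ends.
Rny1, whole RNA: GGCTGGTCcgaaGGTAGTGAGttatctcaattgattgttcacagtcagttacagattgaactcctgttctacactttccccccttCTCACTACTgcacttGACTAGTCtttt
Rny3, whole RNA: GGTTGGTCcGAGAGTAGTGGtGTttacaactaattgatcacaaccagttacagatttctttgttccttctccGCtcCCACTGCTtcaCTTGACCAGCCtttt
Y1 bases 3 to 30: CTGGTCcgaaGGTAGTGAGttatctcaa
Y1 bases 1 to 31: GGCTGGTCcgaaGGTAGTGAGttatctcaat
Y1 bases 1 to 33: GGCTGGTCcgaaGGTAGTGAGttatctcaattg
Y1 bases 83 to 109: cttCTCACTACTgcacttGACTAGTCt

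The fragment of Y1 bases 3 to 30 was the most abundant Y_RNA sequence in rat, with 383 reads in rat and 0 in mouse. The fragment of bases 1 to 31 had 325 reads in rat and 16 in mouse, and that of bases 1 to 33 had 128 reads in rat and 43 in mouse. The 3′ fragment of bases 83 to 109 led in mouse, with 137 reads in rat and 53 in mouse. In the predicted fold, bases 1 to 8 of Rny1 pair with bases 101 to 108 and bases 13 to 21 with bases 86 to 94. The 5′ fragment of bases 1 to 30 and the 3′ fragment of bases 83 to 109 therefore share 17 predicted base pairs, which are all pairs of that stem. The predicted minimum free energy was -34.3 kcal/mol for Rny1 and -27.1 kcal/mol for Rny3.

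Both families took a higher share of the rat library than of the mouse library. Y_RNA entries held 2938 reads in rat and 530 in mouse, which is 0.0201% of listed rat reads (0.0193 to 0.0208) and 0.00451% of listed mouse reads (0.00413 to 0.00491). In reads per 1000000 listed reads (rpm), Y_RNA stood at 201 in rat and 45.1 in mouse, a log2 ratio of rat over mouse of 2.15 (2.02 to 2.29). Vault entries held 4277 reads in rat and 354 in mouse, or 292 rpm in rat and 30.1 rpm in mouse. Their log2 ratio was 3.28 (3.12 to 3.44), a 9.70-fold higher share in rat. Neither value rests on a single sequence, since the leading sequence held 383 of 2938 rat and 53 of 530 mouse Y_RNA reads, and 516 of 4277 rat and 74 of 354 mouse Vault reads. Under Rfam entries, a single snoRNA family, SNORD58, took 0% of listed rat reads and 34.2% of listed mouse reads. Its reads under other entries were not counted here. With its Rfam reads left out of the totals the log2 ratios were 1.55 for Y_RNA and 2.67 for Vault, since this moves every ratio by -0.60.

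Ratios of this size were common among Rfam families. Of 144 families that reached 100 reads in the 2 libraries combined, 43 (29.9%) were at least 2-fold higher in rat, as Y_RNA and Vault were, and 74 (51.4%) were at least 2-fold lower in rat. Vault ranked 27 and Y_RNA 37 from the highest ratio of the 144, against a median log2 ratio of -1.29 over all of them. Only 91 of the 144 had reads in both libraries, and their median was -0.51. Rat exceeded mouse by 2-fold or more in 30 of these 91, and mouse exceeded rat by that much in 34. The remaining families had no read in a library and took 0.5 read there, so their ratios depend on that value. The rank of Y_RNA among the 144 holds for its Rfam entries. With Y1 and Y3 reads of all entries gathered by sequence, the log2 ratio was -0.28, which would rank 56.

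**Figure D1:**
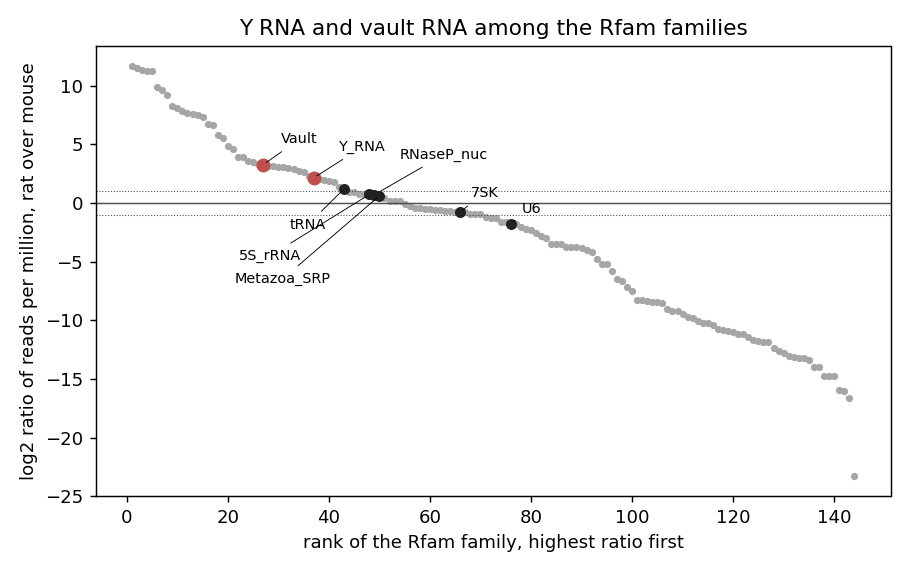
Log2 ratio of rpm, rat over mouse (vertical axis), for the 144 Rfam families with at least 100 reads, ranked from the highest (horizontal axis). Each point is 1 family; red points are Vault (3.28) and Y_RNA (2.15), black points are other RNAs of RNA polymerase III, dotted lines mark a 2-fold difference, and families with no read in a library were given 0.5 read there.

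The Y_RNA family as listed was almost entirely Y1. Each sequence was placed on Rny1 or Rny3 with at most 2 mismatches, and among the placed reads of Y_RNA entries Y1 held 99.5% in rat (99.2 to 99.7) and 90.6% in mouse (87.7 to 93.0). Only 15 rat and 46 mouse reads of these entries were Y3. Left unplaced were 6 rat and 40 mouse reads, of which 2 rat and 34 mouse reads lay on the minus strand of their entry. The entries named many genomic copies, 17 in rat and 12 in mouse, and 13 rat and 7 mouse entries held reads placed on Rny1. The leading rat entry held 61.9% of rat Y_RNA reads and the leading mouse entry 39.4% of mouse Y_RNA reads. The next entry held 325 of 2938 rat reads and 180 of 530 mouse reads. Against Rny1 itself, 97.2% of rat and 94.1% of mouse Y1 reads had 0 mismatches, whereas against the entries they were listed under, 64.1% of rat and 4.34% of mouse Y_RNA reads had none.

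Y3 fragments were present in both libraries, mostly under records outside Rfam. By sequence, Y3 had 871 reads in rat and 2976 in mouse over all entries. Of these, 98.3% in rat and 98.5% in mouse were listed outside the Y_RNA family. In rat, 775 Y3 reads stood under a GenBank record of mRNA type and 81 under records of unknown type. In mouse, 2798 stood under GenBank records of unknown type and 132 under records of piRNA type. Y1 was listed outside the family by 1 rat read and by 272 mouse reads, or 38.0% of mouse Y1 reads.

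Counted by sequence over all entries, Y1 was higher in rat and Y3 was higher in mouse. Y1 stood at 199 rpm in rat and 60.9 rpm in mouse, a log2 ratio of 1.71 (1.59 to 1.83). Y3 stood at 59.4 rpm in rat and 253 rpm in mouse, a log2 ratio of -2.09 (-2.20 to -1.98). Y1 was thus 77.0% of rat (75.6 to 78.3) and 19.4% of mouse Y RNA reads (18.1 to 20.7), a share that does not depend on the library totals. Together, Y1 and Y3 came to 259 rpm in rat and 314 rpm in mouse, and their log2 ratio of -0.28 (-0.35 to -0.21) has the opposite sign to that of the Y_RNA family. With SNORD58 left out of the totals, Y1 was at 1.11 and Y3 at -2.69. Counted as distinct sequences, Y3 was at 0.05 (-0.19 to 0.30), with 240 sequences in rat and 325 in mouse. Of rat Y3 reads, 53.8% had 1 mismatch to the mouse RNA, compared with 3.39% of mouse Y3 reads, and reads with more than 2 were not counted. Most of these lay at a pair of positions, counted from 1 at the 5′ end of Rny3, with the mouse reference base first: G73A in 411 of 425 rat reads over that base and A11C in 59 of 69.

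**Figure D2:**
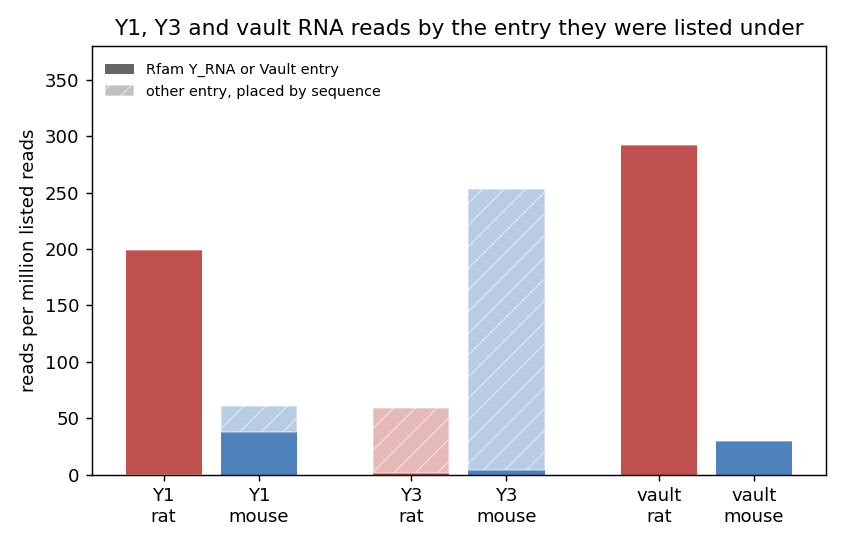
Rpm (vertical axis) of Y1, Y3 and vault RNA in the rat and the mouse library. Solid bars are reads under the Rfam families and hatched bars are reads placed by sequence under other entries; Y1 and vault RNA were higher in rat, and Y3, nearly all hatched, was higher in mouse (59.4 in rat, 253 in mouse).

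Listed Y1 fragments came mostly from the 5′ end in rat and more from the 3′ end in mouse. Reads that began at bases 1 to 3 were counted as 5′-end fragments, and reads that ended no more than 8 bases short of the last base as 3′-end fragments. Under Y_RNA entries, 5′-end fragments were 59.1% of rat (57.3 to 60.9) and 39.9% of mouse Y1 reads (35.3 to 44.6). 3′-end fragments were 26.8% of rat (25.2 to 28.5) and 51.8% of mouse Y1 reads (47.0 to 56.5). With Y1 reads of all entries, the 5′-end share was 59.1% in rat and 24.7% in mouse, since every listed 5′-end read of mouse Y1 was already under the family. In rpm, Y1 5′-end fragments stood at 118 in rat and 15.1 in mouse, and 3′-end fragments of all entries at 53.4 in rat and 37.4 in mouse. Of mouse Y_RNA reads, 23 matched their entry without mismatch, and none of these was a 5′-end read. How the entries available for each end bear on these shares was not tested.

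The rat 5′ fragments had ragged starts, whereas those of mouse began almost always at base 1. Of rat Y1 5′-end reads, 60.5% began at base 1, 15.2% at base 2 and 24.3% at base 3. Of mouse Y1 5′-end reads, 97.7% began at base 1 (94.3 to 99.4), with 3 reads at base 2 and 1 read at base 3 among 177. Counting only starts exactly at base 1, the 5′-end share of Y_RNA reads was 35.6% in rat and 35.3% in mouse, so the difference under Y_RNA entries rested on starts at bases 2 and 3. With Y1 reads of all entries, starts exactly at base 1 were 35.7% in rat (34.0 to 37.5) and 24.2% in mouse (21.1 to 27.5). Counted as distinct sequences, 19.6% in rat and 35.9% in mouse were 5′-end fragments, the opposite order to that by reads. The far ends also differed. Base 30 ended 52.5% of rat 5′-end reads (50.1 to 54.8) and 20.9% of mouse ones (15.2 to 27.6), and base 33 ended 7.65% of rat and 24.9% of mouse ones. The modal length of 5′-end reads was 28 nt in rat and 33 nt in mouse.

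The 3′ fragments of Y1 began mainly, but not only, at 2 places in both libraries. Elsewhere, base 57 began 20 rat and 36 mouse Y1 reads of all entries, whatever their far end. Among Y1 reads of all entries, 3′-end fragments that began at base 83 or 84 were 14.1% in rat (12.9 to 15.4) and 33.0% in mouse (29.5 to 36.5). Those that began at bases 73 to 77, in front of a run of C residues, were 10.3% in rat (9.20 to 11.4) and 10.8% in mouse (8.58 to 13.3). These intervals overlap. Under Y_RNA entries alone, starts at bases 73 to 77 were 10.3% in rat and 0.901% in mouse, since most such mouse reads were listed under other entries. All these are shares of Y1 reads of every position, 5′-end reads included. Within 3′-end reads of all entries, base 83 or 84 began 412 of 782 in rat and 236 of 440 in mouse. Bases 73 to 77 began 300 of 782 in rat and 77 of 440 in mouse, a lower share in mouse. The modal length of 3′-end reads was 27 nt in both libraries. No rat Y1 read reached the last 2 bases of the U tail, which at 2918 reads allows a share of up to 0.103%, whereas 47 mouse Y1 reads did (6.56%). Under Y_RNA entries alone, 0 of 2917 rat and 4 of 444 mouse Y1 reads did (0.901% in mouse), so most of the 47 mouse reads were listed under other entries. At base 110 of Rny1, 11 of 12 rat reads carried T110A. Listed reads are those that matched an entry, and how far the matched rat Y1 entries run along the tail was not tested. Of the 2918 rat Y1 reads, 1725 were 5′-end fragments. Of all Y1 reads, 6.99% in rat and 38.5% in mouse ended within the U tail. Within 3′-end reads these were 204 of 782 in rat and 276 of 440 in mouse, a smaller contrast.

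**Figure D3:**
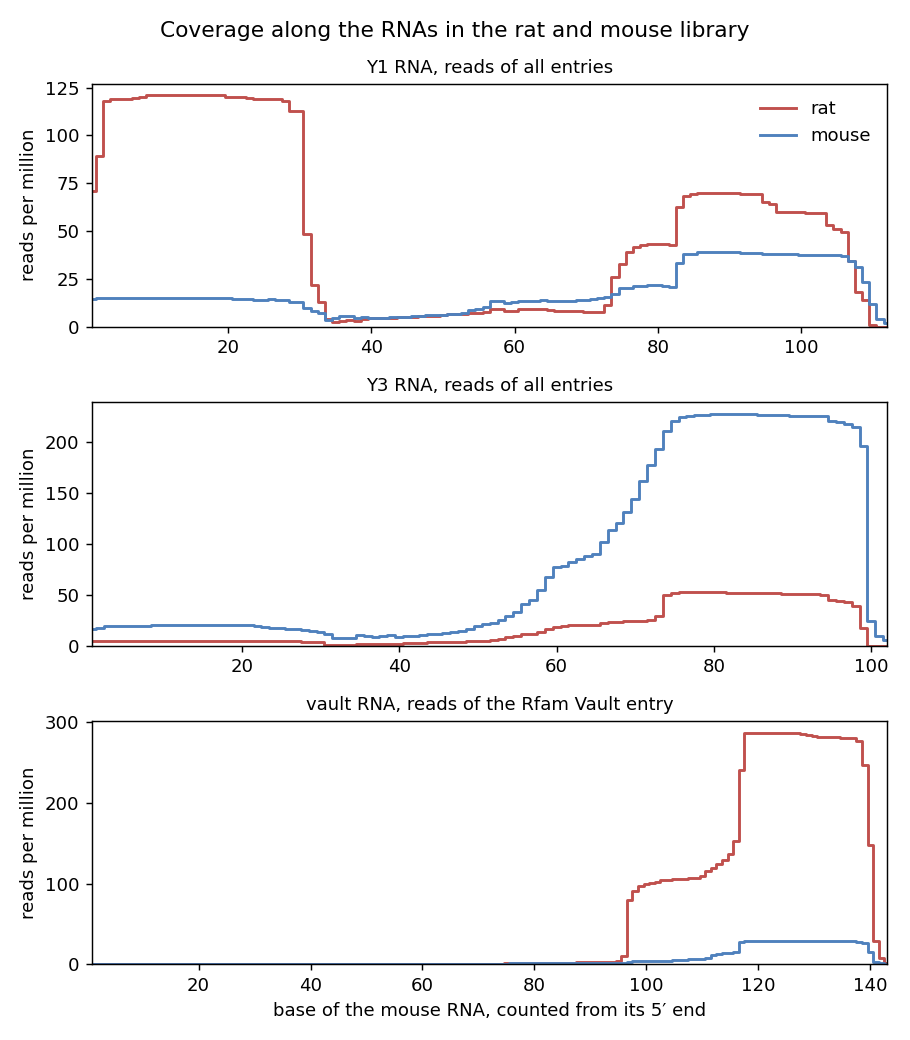
Coverage in rpm (vertical axes) at each base of the mouse RNA (horizontal axes) for Y1, Y3 and vault RNA, rat in red and mouse in blue. Rat Y1 coverage is highest over the first 30 bases, Y3 coverage is highest over the 3′ end and higher in mouse, and vault RNA coverage lies at the 3′ end in both.

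Y3 fragments came mostly from the 3′ end in both species. 3′-end fragments were 83.7% of rat (81.1 to 86.1) and 89.2% of mouse Y3 reads (88.0 to 90.3), and 5′-end fragments were 7.81% in rat and 7.49% in mouse. Base 99, the first of the U tail, ended 28.6% of rat and 67.8% of mouse Y3 reads, while base 98 ended 37.7% of rat Y3 reads. The rat 3′ fragments had a preferred start and the mouse ones a staggered one. In rat, 34.1% of Y3 reads began at base 74 (31.0 to 37.4), compared with 7.22% in mouse (6.32 to 8.21). 3′-end fragments that began at bases 53 to 69 made up 28.2% of rat and 44.3% of mouse Y3 reads. The leading exact Y3 sequences show the shift in the end by 1 base.
Y3 bases 74 to 98, leading in rat: CtcCCACTGCTtcaCTTGACCAGCC
Y3 bases 71 to 99, leading in mouse: ccGCtcCCACTGCTtcaCTTGACCAGCCt

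Counted by position, so that rat reads with a substitution at base 73 are kept, the form of bases 74 to 98 had 150 reads in rat and 17 in mouse. The form of bases 71 to 99 had 1 read in rat and 166 in mouse, and that of bases 74 to 99 had 85 reads in rat and 158 in mouse. The preferred rat start lay 1 base behind the position of G73A. Median read length of Y3 was 26 nt in rat and 32 nt in mouse. No rat Y3 read reached the last 2 bases of the U tail, which at 871 reads allows a share of up to 0.344%, whereas 116 mouse Y3 reads did (3.90%). Listed reads are those that matched an entry. The record that held 775 of the rat Y3 reads was covered by them up to base 99, and how far the matched rat records run was not tested.

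The 2 species shared more Y_RNA than Vault sequences. Of the Y_RNA sequences, 51 occurred in both libraries, which is 15.3% of the rat and 51.5% of the mouse sequences. They held 57.7% of rat and 67.4% of mouse Y_RNA reads. Of the Vault sequences, 2 occurred in both, 0.604% of the rat and 2.74% of the mouse sequences. They held 2 rat Vault reads (0.0468%) and 59 mouse Vault reads (16.7%). The share of all listed sequences that occurred in both libraries was not set beside these values, so neither overlap can be called high or low for these libraries.

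Vault RNA fragments were 3′-end fragments in both libraries. The mouse gene Vaultrc5 (ENSMUSG00000065145) is a 143-nt non-coding gene on the plus strand of chromosome 18, bases 36801866 to 36802008 of GRCm38. All Vault reads of a library were listed under 1 entry, and they were placed on the mouse RNA with gaps allowed, which left 36 of 4277 rat reads and 0 of 354 mouse reads unplaced. Of the placed reads, 4 in rat and 350 in mouse matched the mouse RNA with no edit, while against their own entries 96.1% of rat and 98.9% of mouse Vault reads had no mismatch. Rat positions are therefore those of an alignment between 2 differing RNAs. 3′-end fragments were 96.9% of rat (96.3 to 97.4) and 96.3% of mouse Vault reads (93.8 to 98.0). 5′-end fragments were 9 reads in rat and 1 read in mouse. Reads ended at bases 138 to 141, near the 3′ end, in 93.0% of rat and 88.7% of mouse cases.

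A short and a long vault fragment shared this end, and the long one took a higher share in rat. Reads that began at bases 116 to 118 and ended at bases 137 to 142 were 51.8% of rat (50.3 to 53.3) and 49.7% of mouse Vault reads (44.4 to 55.1). The leading form of each library was one of them, of 24 nt from base 117 to base 140, with 516 reads in rat and 74 in mouse. With the same ends, reads that began at bases 96 to 99 were 29.7% of rat (28.3 to 31.1) and 7.06% of mouse Vault reads (4.62 to 10.2). Their leading form, of 44 nt from base 97 to base 140, had 448 reads in rat. Reads with these ends that began at bases 111 to 115 were 9.03% of rat and 23.7% of mouse Vault reads (19.4 to 28.5), among them 19 mouse reads from base 112 to base 140. These windows, and those for the starts of Y1 and Y3, were set after the end positions had been seen. Outside the family, 0 rat reads and 1 mouse read shared an 18-nt word with the Vault reads of their library.

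**Figure D4:**
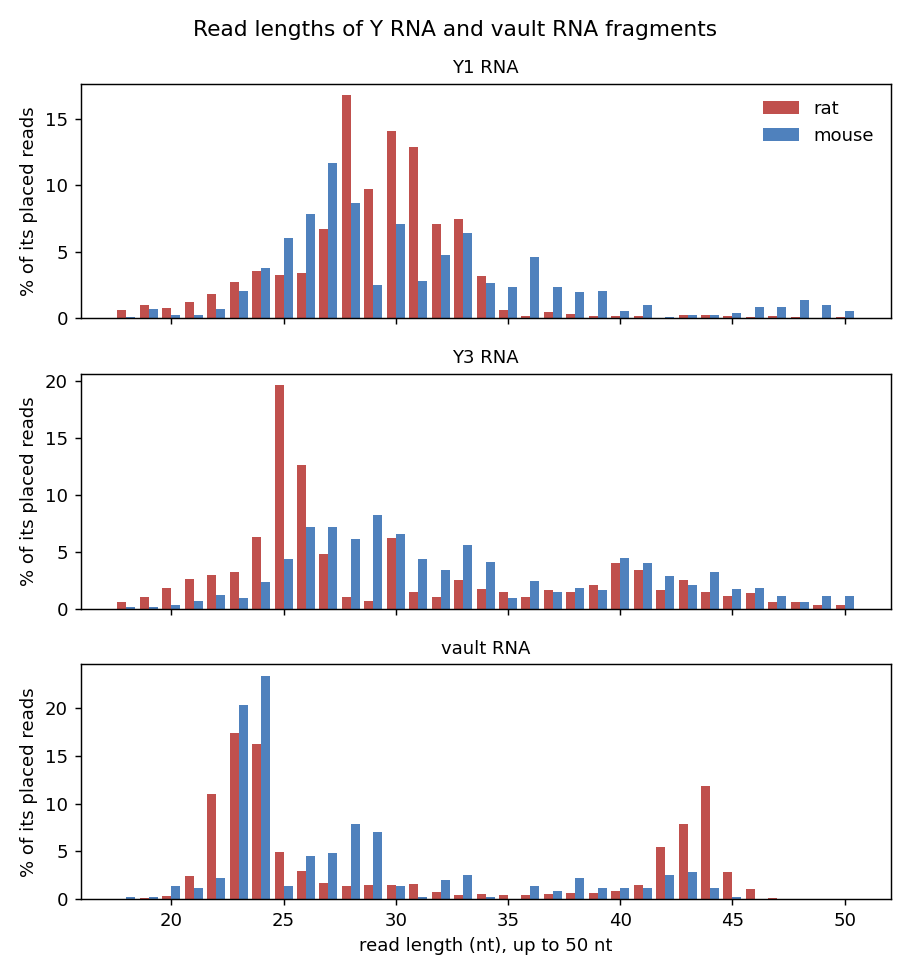
Read length in nt, up to 50 nt (horizontal axis), as a percentage of the placed reads of each RNA (vertical axes), rat in red and mouse in blue. Y1 reads are mostly 26 to 34 nt long, rat Y3 reads peak at 25 nt (19.6%), and vault RNA has a short form at 22 to 24 nt in both libraries and a long form at 42 to 45 nt that is larger in rat.

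Other RNAs of RNA polymerase III were measured beside Y_RNA and Vault. The list held 5S rRNA, tRNA, 7SK, the signal recognition particle RNA, U6, U6atac and the RNA components of RNase P and RNase MRP, with both families. Of its 8 families with at least 100 reads, 3 were at least 2-fold higher in rat (tRNA, Y_RNA and Vault) and 1 was at least 2-fold lower. The median log2 ratio of the 8 was 0.72. Over all 144 Rfam families, 43 (29.9%) were that much higher and 74 (51.4%) that much lower, with a median of -1.29. Without Y_RNA and Vault, the list held 6 families, 1 higher and 1 lower, with a median of 0.67. Y_RNA counts here by its Rfam entries, and Y1 and Y3 by sequence stood at -0.28. tRNA, the adaptor of translation, stood at 553166 rpm in rat and 237627 in mouse, a log2 ratio of 1.22. 5S rRNA, of the large ribosomal subunit, stood at 0.74, RNase P RNA, which trims tRNA precursors, at 0.71, and the signal recognition particle RNA at 0.62. 7SK, which holds back transcription elongation, was lower in rat at 861 rpm, against 1427 rpm in mouse (log2 ratio -0.73). U6, the catalytic spliceosomal RNA, was also lower in rat at 112 rpm, against 376 rpm in mouse (log2 ratio -1.74). U6atac had 37 reads in rat and 44 in mouse, and RNase MRP had 0 reads in both libraries.

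Transcripts of the proteins of these particles were looked for in the mouse library under mRNA entries, by 18-nt words found in no other gene. Fragments of Parp4 (156 reads), Mvp (122 reads) and Tep1 (86 reads), which encode proteins of the vault, and of Ssb (16 reads) and Trove2 (15 reads), which encode La and Ro60, were present at 13.3 rpm or less. Rat transcripts were not analysed here.

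Summed marker miRNAs of every cell type on the list were higher in rat, as Vault and Y1 were, with SNORD58 kept in the totals. Leaving SNORD58 out moves each of these log2 ratios by -0.60. Markers were counted by miRNA name, and the Rfam family mir-143 stood at a log2 ratio of -12.769, higher in mouse. The sums of the germ cell list (miR-34b, miR-34c and miR-449a) were 900.3 rpm in rat and 14.2 in mouse, and those of the epithelial list were 339 in rat and 207 in mouse, although its miR-200c had 30 reads in rat and 701 in mouse. Leukocyte markers came to 17.2 rpm in rat and 0.765 in mouse, with miR-223 at 3 reads in rat and 0 in mouse. Red blood cell markers came to 5.53 rpm in rat and 0.340 in mouse, with miR-144 at 13 reads in rat and 0 in mouse. Smooth muscle markers came to 1854 rpm in rat and 832 in mouse, with no mouse read for miR-145, and miR-126 of the endothelium to 395 reads in rat and 188 in mouse. The part of other cells in the levels of Y RNA and vault RNA was not tested, and fewer cells of a type cannot be told apart from less RNA per cell.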

How the data were processed

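Per the file headers, each deposited table gives a read count, as a whole number without normalization, for every distinct sequence, with 1 matched entry, a strand and its mismatches. Bowtie 0.12.7 and the builds mm 9 and rn 5 are named in the submitters' processing notes. Trimming, filters and the number of reads sequenced were not stated in those notes or headers. The libraries held 14652889 listed reads in rat and 11760708 in mouse. Sequences on the minus strand were turned to the read's own strand, and a closing line with only a total was left out. Sequences were placed without gaps, sense strand, on Rny1, Rny3 and Vaultrc5 of GENCODE M21 (GRCm38) with at most 2 mismatches, and a tie between RNAs was left unassigned. Vault reads were placed with edlib, with edits up to a share of 0.2 of the read. Placement without gaps was tested on simulated fragments of the mouse RNAs, and placement with gaps was not tested. No rat reference was used, so rat positions are those of the mouse RNA.

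Shares have Clopper-Pearson and ratios exact conditional binomial 95% intervals. Families were compared from 100 reads over both libraries, with 0.5 read in place of 0. A count of 0 was taken to allow up to 3 counts. Folding used ViennaRNA 2.7.2, and Python 3.11.15 with SciPy 1.17.1 did the rest. Named are both families, Y1, Y3 and vault RNA, entries with at least 10% of a family, the 5 most abundant sequences per library (shown in part) and the listed RNA polymerase III families. Members and lists were chosen with earlier results of these data known. Alternatives changed the totals, the mismatches, the minimum reads (10), the lengths, the strand and the class of the reads.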

Additional observations from a re-analysis of the deposited data

How the results depend on the processing

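Vault kept its direction under all 10 alternatives, Y1 by sequence under all 9, Y_RNA under 9 of 10 and Y3 by sequence under 8 of 9. Y_RNA, at 2.15, turned to -0.29 when reads of other entries were added by sequence, which adds 856 rat and 2930 mouse Y3 reads and 1 rat and 272 mouse Y1 reads. It was 1.55 without SNORD58 in the totals, 1.95 without the most abundant sequence of each library, 2.38 scaled to Rfam reads other than SNORD58 and tRNA, and 6.96 with sequences listed without mismatch, of which mouse had 23 reads. Vault under the same 4 settings was 2.67, 3.07, 3.51 and 4.16, with at least 10 reads per sequence it was 4.04, and by distinct sequences 2.67. The alternatives for Y1 and Y3 by sequence, and those that use reads of other entries for the 5′-end share and the Y1 share, were chosen after seeing the data. Y1 by sequence was 1.11 without SNORD58, 1.50 without the most abundant sequence of each library, 3.37 listed without mismatch, 2.30 with at least 10 reads, 1.18 by distinct sequences and 1.86 within 18 to 45 nt. Y3 by sequence was -2.69, -2.30, -2.87 and -2.78 under the first 4 of these, 0.05 by distinct sequences, -2.27 without its leading sequence and -3.23 with 0 mismatches to the mouse RNA; the cause of the turn by distinct sequences was not tested.

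The 5′-end share of Y_RNA reads, rat minus mouse, was 22.7 percentage points. It was 89.5 listed without mismatch, where no mouse 5′-end read was left, 33.8 with at least 10 reads, -16.3 by distinct sequences, 12.1 without the leading sequence, 0.267 with starts exactly at base 1, 36.5 with reads of other entries added and 34.4 for Y1 reads of all entries; the cause of the turn by distinct sequences was not tested. The Y1 share of placed Y_RNA reads, rat minus mouse, was 8.88 percentage points, 0 listed without mismatch and 57.6 with reads of other entries added. No paired analysis was possible because each species has 1 library. Depth limits the mouse values, which rest on 530 Y_RNA reads, of them 177 Y1 5′-end reads, and on 354 Vault reads.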
